A study of Mus musculus with 4 samples.

Results

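Inflammasomes are cytosolic complexes in which a sensor protein, once it meets a microbial or danger signal, recruits the adaptor ASC and activates an inflammatory caspase. The caspase then cleaves the cytokines IL-1β and IL-18 and gasdermin D, whose amino-terminal fragment forms pores in the plasma membrane, and the lytic cell death that follows is called pyroptosis. In the colon this pathway is known from both the leukocytes of the lamina propria and the epithelium, which stand on either side of the barrier that dextran sulfate sodium (DSS) damages. The expression of 10 genes of this pathway was followed here through the cell classes of the inflamed colonic lamina propria: the sensors Nlrp3, Nlrp1b, Nlrc4, Naip2, Naip5 and Aim2, the adaptor Pycard, the caspases Casp1 and Casp4, and the pore former Gsdmd. They were taken by symbol, and all 10 were found once among the 32285 genes of the count tables.

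Single-cell RNA sequencing was done on CD45+ cells, taken with magnetic beads from digested colons of mice given DSS, in 4 samples that each mixed 3 mice. All mice had received DSS at 2% in the drinking water for 7 days, with tissue taken on day 8, and no untreated sample was among the 4. Their age is 10 weeks in the labels and 8 weeks in the paper, and the background was C57BL/6. The paper reports animals of both sexes for its colitis model as a whole. The sex of the mice in these 4 samples is not given in the sources used here. The comparison was between mice that lack AhR in every cell and their wild-type littermates, but the labels do not tell which sample had which genotype. No genotype effect was therefore estimated, values are given sample by sample, and no sample is treated as a replicate of another. Comparisons were therefore made between cell classes inside a sample, where both classes share mice, library and sequencing run.

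The libraries held 8493 to 13730 cells and 72509408 to 135516016 unique molecular identifiers (UMIs, each marking 1 captured mRNA molecule), and each pair of libraries shared at most 0.423% of its cell barcodes. Of 45229 cells, 39550 were kept. A cell entered a class when at least 3 marker genes of that class, and of no other class, stood more than 1 standard deviation above their mean over all cells, which placed 28726 cells in 1 class and left out 7773 cells with markers of several classes and 3051 with too few markers. No gene of the pathway was used as a marker. In the resulting gates, 9 of 11 neutrophil markers, 10 of 14 markers of the monocyte-macrophage lineage and 9 of 9 epithelial markers were higher than in every other class. The same markers set the gates, so these counts describe the gates and are no independent check of them. The joint gate of innate lymphoid cells and NK cells was the least distinct, with 8 of 14, and T cells held 615 to 2549 CPM (defined below) of its summed markers. The mRNA of CD45 itself (Ptprc) was between 856 and 2933 CPM in all leukocyte classes other than plasma cells and mast cells, and between 32.0 and 81.6 CPM in the epithelial, endothelial and fibroblast gates, whose cells thus came through the bead selection with little of the selected mRNA.

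A level is given as CPM, the UMIs of a gene summed over the cells of a class in a sample, per 1000000 UMIs of those cells. It is a share of the class's mRNA, so that a lower level and a larger total of other mRNA cannot be told apart. A class was read in a sample when it held at least 50 cells there, which neutrophils, the monocyte-macrophage lineage, dendritic cells (DCs), B cells, T cells, fibroblasts and the joint class of innate lymphoid cells (ILCs) and NK cells did in all 4 samples. Ratios between classes carry exact 95% intervals that cover counting error only. A gene was called higher or lower when the ratio was at least 2-fold in the same direction in every sample read, and the share of all tested genes called in that way is given as the background. Where classes or subsets are compared without calls, no such share was computed. No p-value is given, since the genotypes of the 4 samples are unknown and an exact sign-flip permutation test over 4 samples cannot go below a two-sided p of 0.125.

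**Figure D1:**
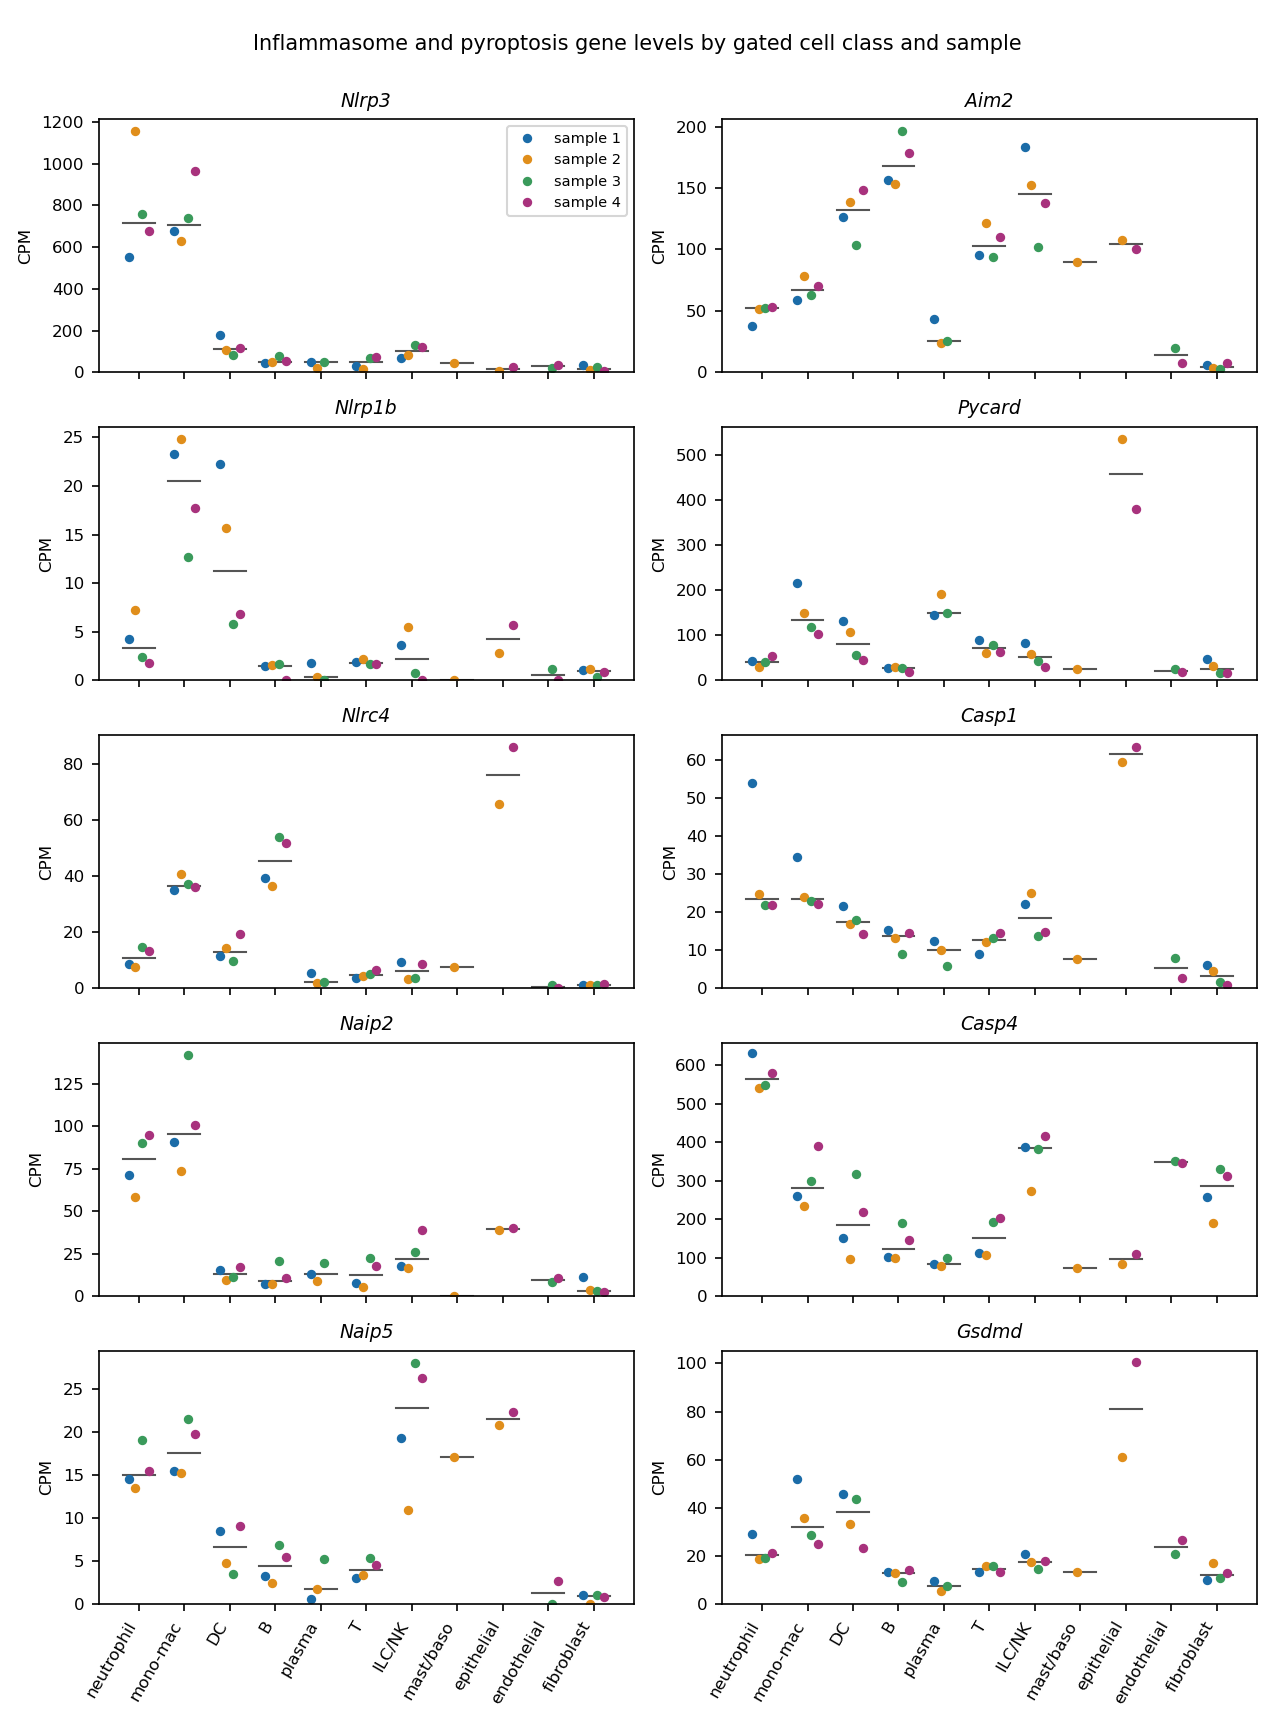
Level of the 10 genes (CPM of summed UMIs, vertical axis from 0, its own scale for each gene) in each cell class, with 1 point per sample and a line at the median. Nlrp3 stood above 500 CPM only in neutrophils and the monocyte-macrophage lineage, Casp4 was highest in neutrophils in all 4 samples, Aim2 was highest in B cells or ILCs and NK cells, and Pycard was highest in the epithelial gate in both samples where that gate held at least 50 cells.

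Nlrp3 encodes the sensor that responds to potassium efflux and other signs of cell damage, and it is the inflammasome gene most often studied in colitis. The gene lies on the plus strand of chr11:59541568-59566956 (GRCm38). Its expression was shared by the 2 large myeloid classes and was low elsewhere. In the monocyte-macrophage lineage it was at 676, 631, 740 and 967 CPM in samples 1 to 4. In neutrophils it was at 551, 1157, 757 and 677 CPM. Neither class was the higher one throughout, since the lineage led in samples 1 and 4, neutrophils led in sample 2 and sample 3 lay within counting error, and the ratio of the lineage over neutrophils ran from 0.546 to 1.43. In DCs Nlrp3 was at 179, 106, 84.5 and 115 CPM, in B cells at 44.7, 48.2, 77.4 and 56.3 CPM, and in T cells at 31.1, 18.7, 67.6 and 72.2 CPM. The 2 myeloid classes thus lay apart from every lymphoid class in every sample, with the lineage 9.56- to 17.2-fold above B cells and 10.9- to 33.7-fold above T cells.

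Cells with at least 1 Nlrp3 UMI followed the same order when each cell was thinned to 1000 UMIs to remove differences in depth. They made up 37.8% to 62.4% of neutrophils and 43.8% to 55.7% of the lineage, but 2.32% to 3.97% of B cells. Without thinning the shares were 82.0% to 86.7%, 82.2% to 91.4% and 9.75% to 12.9%, at a median depth of 2927 to 5979 UMIs for neutrophils, 5690 to 8925 for the lineage and 3898 to 5162 for B cells. Free RNA in droplets can carry a gene of one class into another. The level of the neutrophil gene S100a8 in B cells was 0.488% to 1.56% of that in neutrophils, and the level of the macrophage gene C1qa in B cells was 1.25% to 1.43% of that in the lineage, whereas Nlrp3 in B cells stood at 4.17% to 10.2% of neutrophils and 5.82% to 10.5% of the lineage. These 2 reference genes were chosen after values were seen, and both are gate markers. Cells with markers of several classes were left out, which can lower S100a8 and C1qa in the B-cell gate. Stfa2l1 and Pf4, which no gate used, stood in B cells at 0.400% to 1.81% of neutrophils and 0.760% to 1.43% of the lineage. The part of free RNA in the low lymphoid levels of Nlrp3 was not tested.

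RefSeq gives 2 start sites for Nlrp3 on GRCm38.p6, and the 250 bases before the downstream one are shown because they hold 3 copies of GAGGAA or its reverse complement, the core recognised by the myeloid and B-lineage factor PU.1, which are in capitals. They begin 220, 129 and 36 bases before the start, in chr11:59542436-59542685, plus strand.
Nlrp3: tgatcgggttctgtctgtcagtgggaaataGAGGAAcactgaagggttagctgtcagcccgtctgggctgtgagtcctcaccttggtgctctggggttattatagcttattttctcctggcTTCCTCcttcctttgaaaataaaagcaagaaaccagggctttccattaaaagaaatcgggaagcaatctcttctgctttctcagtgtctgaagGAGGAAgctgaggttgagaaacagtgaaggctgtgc
The same 6 letters, searched on both strands, occur in 23.3% of all 32851 RefSeq promoter windows of this length. Of the 12 windows of the 9 pathway genes with a RefSeq promoter, 5 hold them. The matches are a description of the sequence only.

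Nlrp1b, on the minus strand of chr11:71153102-71230733, encodes a sensor that is set off when microbial proteases cleave it. It was highest in the monocyte-macrophage lineage in all 4 samples among the 7 classes read throughout, at 23.3, 24.8, 12.6 and 17.8 CPM. DCs came next, at 22.3, 15.6, 5.77 and 6.82 CPM, and were close to the lineage in sample 1. Neutrophils were at 4.23, 7.21, 2.39 and 1.82 CPM, so that the lineage exceeded them 3.44- to 9.77-fold. B cells held 26, 25, 3 and 0 UMIs in samples 1 to 4. In sample 4 the count of 0 allows a level of up to 1.5 CPM, that of 3 UMIs. The gene gave the fewest UMIs of the 10, 2431 over all kept cells, and 1.37% of the 60-base windows of its transcript are shared with Nlrp1a or Nlrp1c-ps, none of them in the last 500 bases, where 3′ libraries read most.

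Nlrc4 encodes the platform of the inflammasome for bacterial flagellin and secretion systems, and Naip2 and Naip5 encode the receptors that bind the bacterial ligand and hand it to NLRC4. The lineage expressed all 3 genes, whereas B cells and neutrophils stood in opposite order for Nlrc4 and Naip2. Nlrc4 (chr17:74425438-74459142, minus strand) was at 35.3, 40.7, 37.3 and 36.1 CPM in the lineage and at 39.3, 36.4, 54.1 and 51.8 CPM in B cells. It was at 8.67, 7.66, 14.8 and 13.3 CPM in neutrophils and at 3.55, 4.21, 5.02 and 6.37 CPM in T cells. B cells were above the lineage by more than counting error in 3 of 4 samples, with ratios of the lineage over B cells from 0.689 to 1.12, and they were 8.13- to 11.1-fold above T cells. B cells in turn exceeded neutrophils 3.65- to 4.75-fold. Plasma cells, the secreting descendants of B cells, were 7.36- to 23.1-fold below B cells in the 3 samples that held enough of them. Of the 60-base windows of the Nlrc4 transcript, 0.493% occur in transcripts of other genes, Bloc1s3 and Klhl41 among them. In its last 500 bases the share was 5.22%, and the part of such reads in the Nlrc4 levels was not tested.

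Naip2 (chr13:100144063-100202092, minus strand), the receptor for the inner rod of bacterial secretion systems, was at 90.6, 74.0, 142 and 101 CPM in the lineage and at 71.4, 58.6, 90.0 and 95.1 CPM in neutrophils. In B cells it was at 7.03, 7.31, 20.5 and 10.5 CPM and in T cells at 7.95, 5.47, 22.3 and 17.5 CPM. Both myeloid classes exceeded both lymphoid classes in every sample, by 5.75- to 13.5-fold for the lineage over T cells and 4.39- to 10.2-fold for neutrophils over B cells, which is the reverse of the order of neutrophils and B cells in Nlrc4. Naip5 (chr13:100211739-100246323, minus strand), the flagellin receptor, was low in all classes. It was at 15.4, 15.3, 21.6 and 19.8 CPM in the lineage, at 14.5, 13.5, 19.1 and 15.5 CPM in neutrophils, and at 19.4, 11.0, 28.1 and 26.4 CPM in ILCs and NK cells. ILCs and NK cells exceeded T cells 3.26- to 6.5-fold in this gene. The Naip genes are near copies of each other: 15.3% of the 60-base windows of the Naip2 transcript and 30.5% of those of Naip5 occur in other Naip transcripts. In the last 500 bases the share was 0 for Naip2 and 4.08% for Naip5, the latter shared with Ccar1 and Echs1. Reads from the shared windows cannot be assigned to 1 copy.

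Aim2 (chr1:173350879-173466040, plus strand) encodes the sensor of double-stranded DNA in the cytosol. Unlike Nlrp3, its level was higher in lymphoid classes than in neutrophils and the lineage. B cells had 157, 153, 196 and 178 CPM, ILCs and NK cells 183, 152, 102 and 138 CPM, and T cells 95.1, 122, 94.1 and 110 CPM. The lineage had 59.1, 78.5, 63.2 and 70.6 CPM and neutrophils 37.5, 51.8, 52.2 and 53.5 CPM. No myeloid value, DCs set aside, reached any of these lymphoid values. DCs, at 126, 138, 104 and 148 CPM, lay with the lymphoid classes. Relative to the lineage, B cells were 1.95- to 3.11-fold higher, with every interval above 1, and sample 2 was the one that fell short of 2-fold. After thinning, 13.3% to 18% of B cells and 4.88% to 6.93% of the lineage had an Aim2 UMI. Plasma cells did not share the high level of B cells and were 3.62- to 7.80-fold below them, at 43.3, 24.1 and 25.2 CPM in samples 1 to 3.

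The Aim2 window (chr1:173420354-173420603, plus strand, inside the annotated gene span, which on its upstream side overlaps Cadm3 on the opposite strand) is shown beside that of Nlrp3 because it holds the same letters, with matches 140 and 113 bases before the RefSeq start, while the 2 genes differ in their order over the classes.
Aim2: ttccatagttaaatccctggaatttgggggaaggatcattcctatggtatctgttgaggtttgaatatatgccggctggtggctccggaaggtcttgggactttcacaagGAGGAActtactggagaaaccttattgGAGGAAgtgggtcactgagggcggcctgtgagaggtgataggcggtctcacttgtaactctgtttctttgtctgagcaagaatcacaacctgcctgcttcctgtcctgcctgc
No member's window held the response element of interferon regulatory factors, the AP-1 letters TGANTCA or the letters GCGTG, the core that AhR binds, on either strand. These are found in 2.98%, 6.75% and 28.2% of all windows, and their lack says only that the letters are not in these 250 bases.

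Pycard encodes ASC, the adaptor through which NLRP3, AIM2 and, in part, the other sensors reach caspase-1, and it lies on the minus strand of chr7:127989708-127993867. Among the 7 classes read in all samples it was highest in the monocyte-macrophage lineage each time, at 215, 150, 118 and 103 CPM. Neutrophils had 42.4, 30.2, 40.1 and 53.7 CPM, B cells 27.6, 29.3, 27.3 and 18.9 CPM, and T cells 88.7, 61.0, 78.9 and 63.2 CPM. The adaptor was therefore 1.91- to 5.08-fold lower in neutrophils than in the lineage, although the sensor Nlrp3 did not separate these classes. Plasma cells, at 144, 191 and 150 CPM in samples 1 to 3, exceeded B cells 5.22- to 6.51-fold, which reversed the direction seen for Nlrc4 and Aim2 between the same classes.

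Casp1 and Casp4 lie side by side on the plus strand, at chr9:5298517-5307265 and chr9:5308828-5336783. Casp1 encodes the caspase of the canonical inflammasome. It was at 34.6, 24.0, 23.0 and 22.3 CPM in the lineage and at 54.1, 24.8, 22.0 and 21.8 CPM in neutrophils. The intervals of the lineage over neutrophils included 1 in samples 2 to 4, and neutrophils were higher in sample 1. B cells were at 15.2, 13.2, 9.11 and 14.5 CPM and T cells at 9.09, 12.1, 13.3 and 14.6 CPM, lower than the lineage in all 4 samples but by less than 2-fold in some of them.

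Casp4 is the symbol that the annotation uses for the mouse gene of caspase-11, the caspase that binds bacterial lipopolysaccharide in the cytosol and cleaves gasdermin D without a separate sensor. Neutrophils were the class with the highest level in all 4 samples, at 631, 541, 548 and 580 CPM. The lineage had 260, 233, 300 and 389 CPM, and neutrophils exceeded it 1.49- to 2.42-fold with no interval reaching 1. Beyond the myeloid classes, ILCs and NK cells had 387, 274, 382 and 417 CPM and fibroblasts 258, 191, 331 and 313 CPM. The level in ILCs and NK cells thus lay above that in the lineage in each sample, and that in fibroblasts lay on both sides of it. No interval was computed for these ratios to the lineage, so counting error was not set against them. B cells had 101, 98.5, 191 and 145 CPM and T cells 112, 106, 192 and 204 CPM. The lowest level of Casp4 in any class of at least 50 cells, its subsets aside, was 72.5 CPM in the mast cells and basophils of sample 2. After thinning, 37.3% to 45.0% of neutrophils and 7.77% to 16.3% of B cells had a UMI of it.

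The Casp4 window (chr9:5308599-5308848, plus strand) is shown because it holds matches to the NF-kB consensus, a site for the factor that inflammatory signals activate. They begin 93, 92 and 39 bases before the start, the first 2 overlapping, and are in capitals.
Casp4: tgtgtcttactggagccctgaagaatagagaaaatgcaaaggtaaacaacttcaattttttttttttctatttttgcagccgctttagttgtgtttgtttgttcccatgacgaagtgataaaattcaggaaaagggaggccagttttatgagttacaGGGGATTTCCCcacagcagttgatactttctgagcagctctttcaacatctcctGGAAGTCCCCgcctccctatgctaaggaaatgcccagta
Of all windows, 7.25% hold a match on either strand. Of the 12 windows of the 9 genes, 4 do, those of Nlrp3 (the upstream start), Naip5 and Casp4, whose windows overlap almost fully. The genes whose log2 level ran most like that of Casp4 were sought among 9822 genes over 36 pairs of class and sample. They were Selenon (Pearson r = 0.87), Tnip1 (r = 0.86) and Nfkbiz (r = 0.85). The points of one sample share a library, so the correlation is a description. For Nlrp3 the most alike were Ccr1 (r = 0.97), Pla2g7 (r = 0.96) and Lrrc25 (r = 0.96), and for Aim2 they were B4galnt1 (r = 0.91), Lrmp (r = 0.89) and Brms1 (r = 0.88).

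Gsdmd (chr15:75862327-75867408, plus strand) encodes gasdermin D, the common substrate of both caspases. It was at 51.9, 35.7, 28.6 and 25.1 CPM in the lineage, at 45.7, 33.3, 43.5 and 23.3 CPM in DCs, and at 29.1, 18.9, 19.3 and 21.4 CPM in neutrophils. Lineage and DCs did not differ beyond counting error in samples 1, 2 and 4, and DCs were higher in sample 3. B cells, at 13.4, 12.8, 9.11 and 14.0 CPM, and T cells, at 13.5, 16.0, 15.7 and 13.2 CPM, were 1.80- to 3.87-fold and 1.83- to 3.84-fold below the lineage.

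Set against the lineage, the 10 genes were ordered in unlike ways by the other classes. Of the 10, all of which passed the filter of 10 CPM in either class of every sample, 2 were called higher in the lineage than in neutrophils, Nlrp1b and Nlrc4, and 0 lower, where 28.0% of 6989 tested genes were called higher and 7.77% lower. The median log2 ratio of the 10 was 0.42, beside 0.61 over all genes. Against B cells, 5 were called higher in the lineage (Nlrp3, Nlrp1b, Naip2, Naip5 and Pycard) and 0 lower, beside backgrounds of 16.0% and 23.9%, with a median of 1.80 beside -0.39. Against T cells, 5 were called higher (Nlrp3, Nlrp1b, Nlrc4, Naip2 and Naip5) and 0 lower, beside 13.3% and 19.8%, with a median of 1.60 beside -0.43. Against DCs, 2 were called higher (Nlrp3 and Naip2) and 0 lower, beside 8.57% and 8.27%, with a median of 0.90 beside -0.14. Nlrp3 was called against each of the other 3 classes but not against neutrophils, and Aim2 was below 1 in the ratio to B cells, T cells and DCs in every sample without reaching 2-fold in all of them. Several calls came from genes below 10 CPM in the other class. They passed the filter through the lineage and could not have been called lower. Among them were Nlrp1b against neutrophils, B cells and T cells, Naip5 against B cells and T cells, and Nlrc4 against T cells. In samples 1 and 2 the same held for Nlrc4 in neutrophils and for Naip2 in B cells and T cells.

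**Figure D2:**
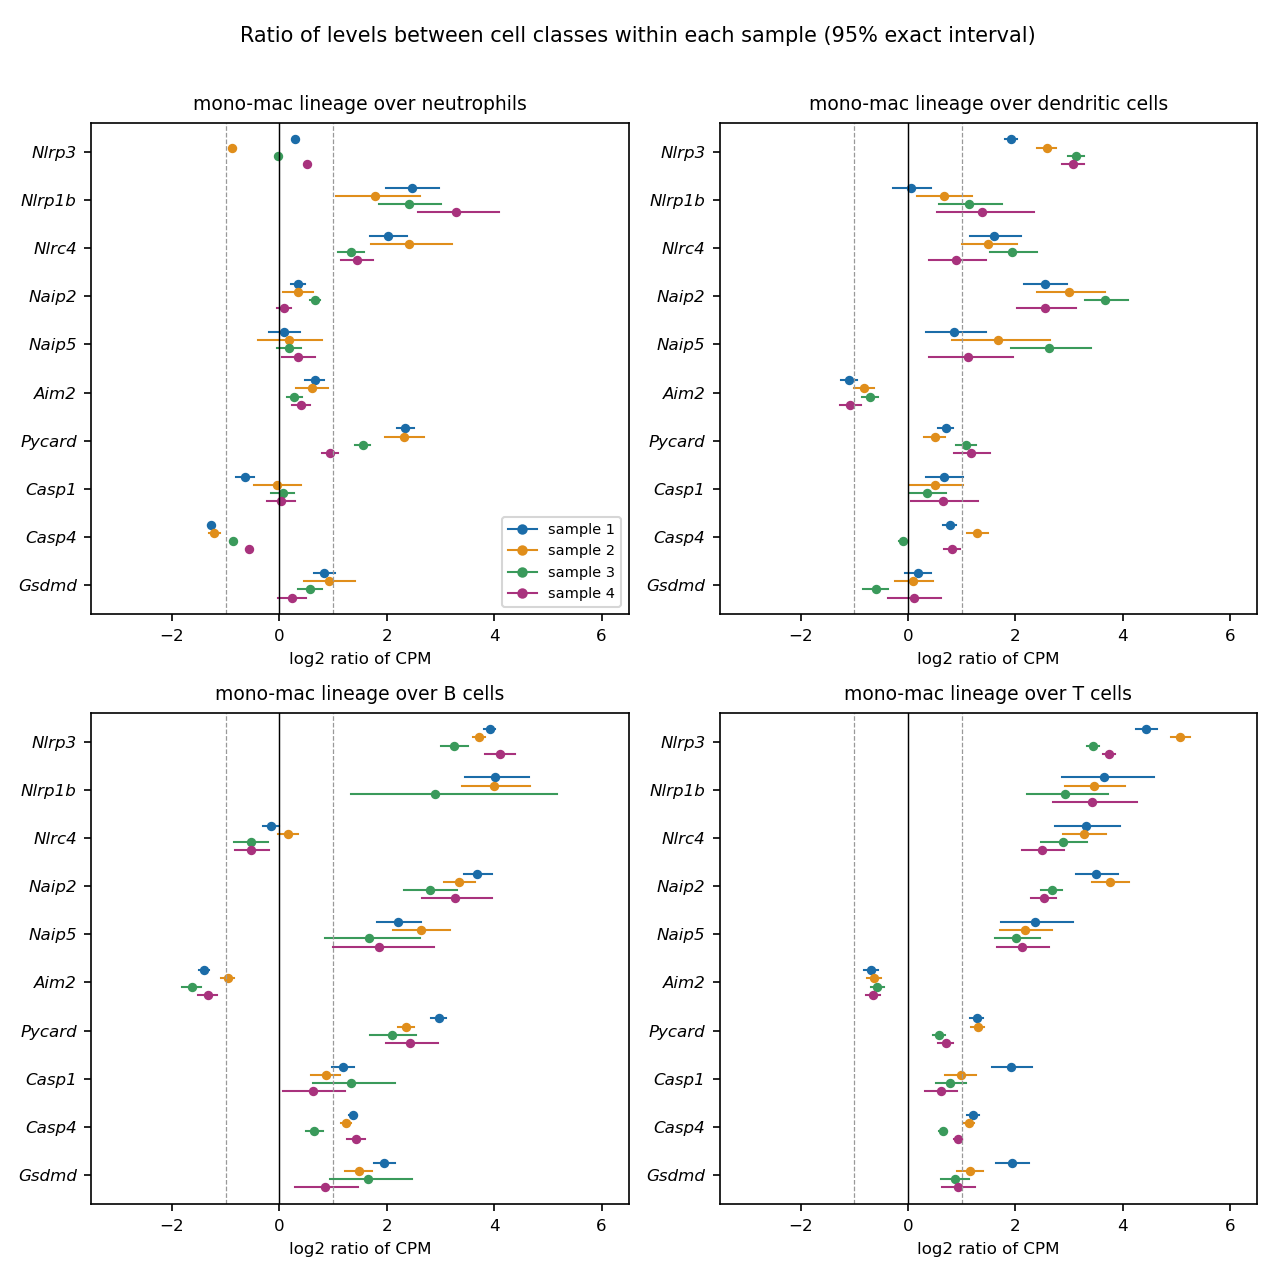
Log2 ratio of the level in the monocyte-macrophage lineage over that in neutrophils, DCs, B cells and T cells (horizontal axis) for each gene, with 1 point per sample and its exact 95% interval; dashed lines mark 2-fold. The panel for neutrophils centres near 0 for Nlrp3, Naip2, Naip5 and Casp1, while Aim2 lies left of 0 in the panels for DCs, B cells and T cells; Nlrp1b in B cells of sample 4, with 0 UMIs, has no point.

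Within the lineage, cells were gated further as monocytes (403 to 1441 per sample) or macrophages (690 to 949 per sample) by markers of each. No member of the list was called in either direction, beside backgrounds of 2.04% and 3.81% of 6901 genes, but several kept their direction in all 4 samples. Naip2 was at 110, 138, 177 and 155 CPM in monocytes and at 58.3, 43.1, 105 and 69.7 CPM in macrophages, 1.70- to 3.2-fold higher in monocytes. Pycard was at 266, 191, 132 and 135.6 CPM in monocytes and at 153, 125, 96.4 and 78.8 CPM in macrophages, 1.37- to 1.74-fold higher. Nlrp1b went the other way, at 19.7, 10.0, 9.62 and 8.40 CPM in monocytes and 26.6, 30.9, 17.6 and 24.9 CPM in macrophages, 1.35- to 3.07-fold higher in macrophages. The intervals of these 3 genes left out 1 in every sample.

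Nlrp3 hardly separated the 2 gates. Monocytes had 652, 672, 804 and 987 CPM and macrophages 702, 647, 709 and 972 CPM, and the ratio stayed between 0.929 and 1.13, on both sides of 1. Il1b, which encodes the cytokine that caspase-1 matures, was by contrast higher in monocytes in every sample, at 4188, 3836, 2764 and 3859 CPM against 3068, 2260, 2110 and 2439 CPM. Casp4 was 0.628 to 1.03 times as high in monocytes as in macrophages. Monocytes also held more of the summed neutrophil markers, 1158 to 4199 CPM against 726 to 1232 CPM in macrophages, and the part of this in the differences was not tested.

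Within neutrophils, cells with markers of the immature state (63 to 536 per sample) were compared with cells carrying markers of mature, activated neutrophils (180 to 481 per sample). Nlrp3 was the 1 gene called, lower in immature cells, of 8 that passed the filter, where 1.41% of 5326 genes were called lower and 0.789% higher. Immature neutrophils had 291, 534, 485 and 509 CPM and mature ones 1081, 1843, 1104 and 1295 CPM. The groups did not overlap, and the mature cells were 2.28- to 3.71-fold higher. They also exceeded monocytes of the same sample, 1.31- to 2.74-fold, which neutrophils taken whole did not do in each sample. After thinning, 58.7% to 76.8% of mature and 21.5% to 41.6% of immature neutrophils had an Nlrp3 UMI, although mature cells were the shallower ones, at a median of 2466 to 4572 UMIs against 4342 to 7623.

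Casp4 moved in the same direction by less. It was at 541, 374, 421 and 517 CPM in immature and at 760, 639, 763 and 838 CPM in mature neutrophils, 1.41- to 1.81-fold higher in the latter with no interval reaching 1. Pycard had its ratio on the other side, immature over mature 1.23 to 2.36, but its intervals included 1 in 3 of 4 samples. Naip2 did not differ beyond counting error in any sample, at 68.5, 61.2, 75.8 and 87.7 CPM in immature and 81.9, 61.2, 81.0 and 111 CPM in mature cells. Nlrp1b and Nlrc4 did not pass the filter on low levels in neutrophils. Il1b followed Nlrp3, at 1145, 1051, 1472 and 1196 CPM in immature and 3473, 4285, 3884 and 3682 CPM in mature neutrophils. The gate for the mature state contains activation genes, so that maturation and activation cannot be told apart in it.

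**Figure D3:**
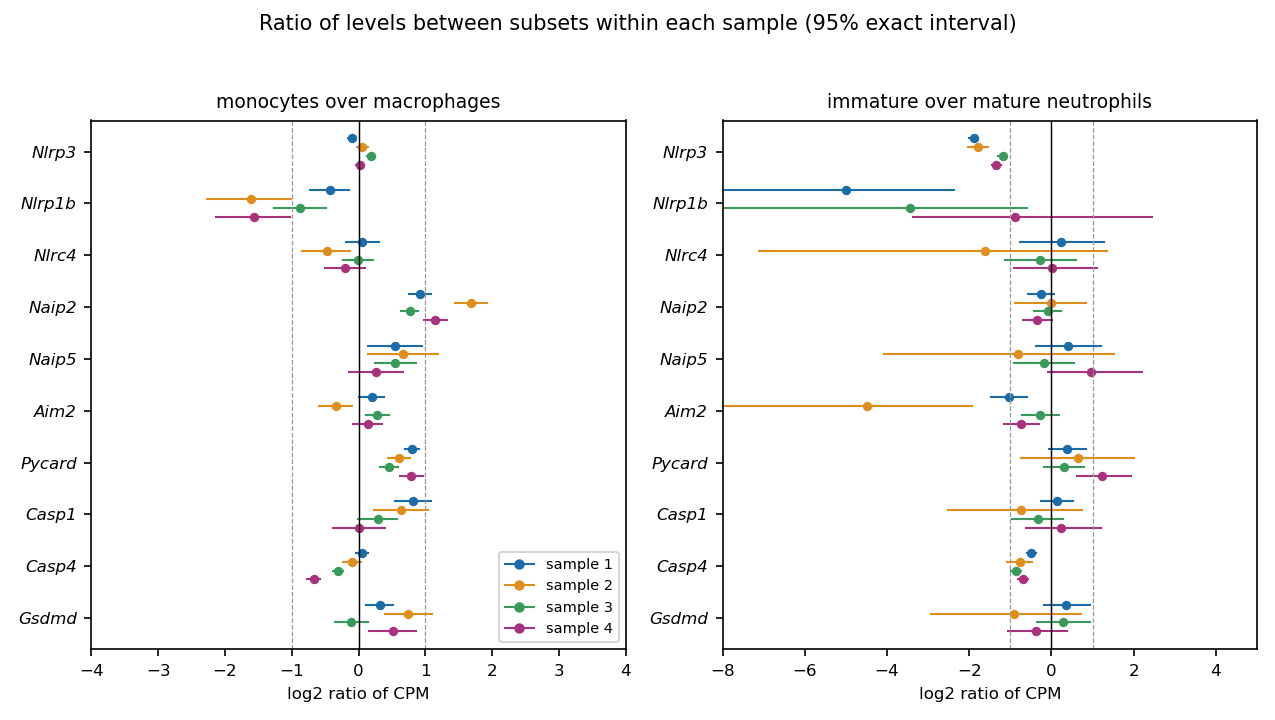
Log2 ratio of the level in monocytes over macrophages (left) and in immature over mature neutrophils (right) for each gene, with 1 point per sample and its exact 95% interval; dashed lines mark 2-fold. Nlrp3 lies at 0 on the left and beyond -1 in all 4 samples on the right. In immature neutrophils Nlrp1b has few UMIs, as has Aim2 in sample 2, with intervals that run off the axis. Nlrp1b in sample 2 has 0 UMIs there and no point.

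In lymphocytes Casp4 differed between subsets. CD4 T cells without Foxp3 had 187, 173, 308 and 331 CPM, regulatory T cells (Tregs, with a Foxp3 UMI) had 110, 88.2, 106 and 109 CPM, and CD8 T cells had 50.4, 81.3, 213 and 197 CPM. Tregs were 1.70- to 3.04-fold below CD4 T cells with no interval reaching 1, and CD8 T cells were 1.45- to 3.71-fold below them. The level in Tregs lay within 88.2 to 110 CPM, while that of CD4 and CD8 T cells differed by more between samples. Pycard was ordered the other way, with Tregs at 171, 81.0, 98.5 and 82.4 CPM and CD4 T cells at 96.2, 73.1, 73.9 and 56.4 CPM, 1.11- to 1.78-fold higher in Tregs, where the interval of sample 2 included 1. Casp1 was at 5.88 to 8.30 CPM in Tregs and at 7.90 to 21.1 CPM in CD4 T cells, below them by more than counting error in samples 3 and 4 only. Aim2 was 1.14- to 1.57-fold higher in CD8 than in CD4 T cells, by more than counting error in 3 of 4 samples. Tregs were also the deepest of these subsets, with a median of 7231 to 10575 UMIs beside 4969 to 7538 in CD4 T cells. No genes were called between these subsets, so how many of all genes differ as much is not known.

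**Figure D4:**
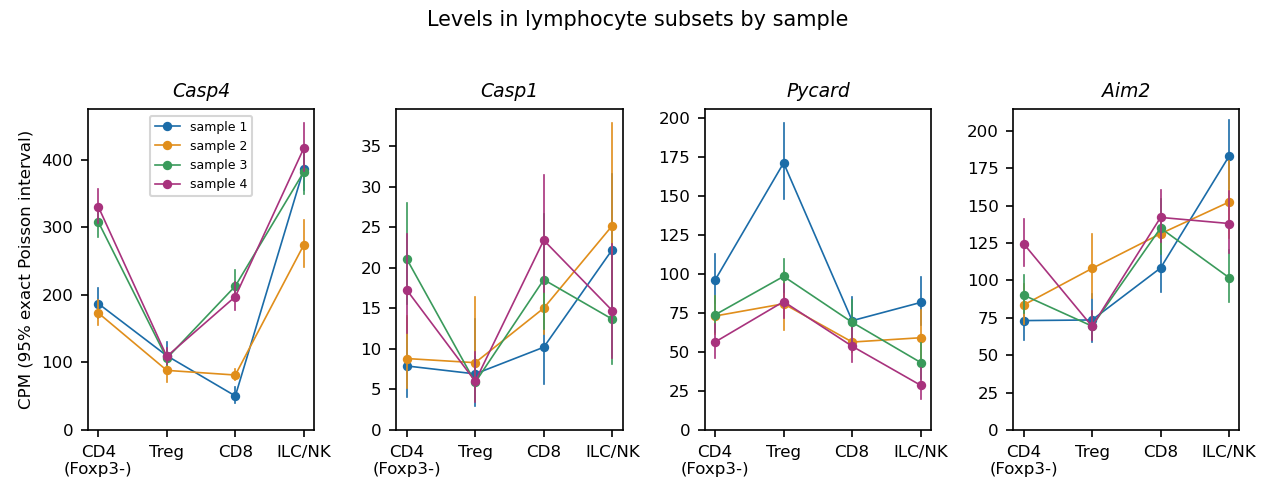
Level of Casp4, Casp1, Pycard and Aim2 (CPM, axis from 0) in CD4 T cells without Foxp3, Tregs, CD8 T cells, and ILCs and NK cells, with 1 line per sample and exact 95% Poisson intervals. Casp4 drops from CD4 T cells to Tregs in all 4 samples, where Pycard is higher, and it is highest in ILCs and NK cells in each sample.

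The epithelial gate held at least 50 cells in samples 2 and 4 (118 and 63 cells). Pycard was at 537 and 380 CPM there, 3.57- and 3.69-fold above the lineage, and Casp1 was at 59.6 and 63.6 CPM, 2.48- and 2.86-fold above it. These 2 genes were called higher and Nlrp3, Nlrp1b and Casp4 lower, beside backgrounds of 27.1% and 20.6% of 8737 genes, so that the shares called among the 10 were near those over all genes. Nlrp3 was at 8.52 and 25.3 CPM, 74.1- and 38.2-fold below the lineage. Nlrp1b, at 2.84 to 5.66 CPM in this gate, and Nlrp3 in sample 2 passed the filter of 10 CPM only through the lineage. They could therefore not have been called higher in epithelial cells. Nlrc4 was at 66.0 and 86.3 CPM, above the lineage by more than counting error in both samples, and Gsdmd was at 61.3 and 101 CPM, likewise above it. With a gate of 4 markers in place of 3, sample 1 also reached 50 cells, and Pycard and Casp1 were then no longer called, because they stood 1.75- and 1.5-fold above the lineage in that sample. Epithelial cells were the deepest class, at a median of 28242 to 45356 UMIs, and the summed markers of the monocyte-macrophage lineage in them came to 178 to 223 CPM, those of neutrophils to 736 to 1302 CPM, those of ILCs and NK cells to 736 to 1046 CPM and those of plasma cells to 298 to 399 CPM. The part of depth and of these markers in the epithelial levels was not tested.

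Several further genes of the pathway were higher in the epithelial gate than in the lineage. From a list of 30 related genes, of which 29 are in the files and 23 could be compared here, 11 were called higher in epithelial cells than in the lineage and 7 lower, beside the same backgrounds of 27.1% and 20.6%. Of the 11, Nlrp6, Naip1, Naip6, Gsdmc2, Gsdmc3 and Gsdmc4 did not pass the filter of 10 CPM in any comparison between leukocyte classes. A gene that passes only through the epithelial gate can only be called higher there, so these counts are a description. Those higher included the epithelial sensor Nlrp6, at 89.7 and 56.3 CPM, the receptor Naip1, at 80.2 and 144 CPM, the gasdermins Gsdmc4, at 353 and 250 CPM, and Gsdmc2, at 101 and 78.9 CPM, and the cytokine Il18, at 189 and 183 CPM. Those lower included Il1b, Il1a, Mefv and P2rx7, the channel through which ATP sets off NLRP3. Il18 in the lineage was at 49.2, 27.5, 32.9 and 32.9 CPM and Il1b at 3774, 2684, 2485 and 2938 CPM, so the 2 substrate cytokines had their higher level in different classes.

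In leukocytes, of 17 genes compared between the lineage and neutrophils, 4 were called higher in the lineage, among them P2rx7 and Panx1, the pair of channels upstream of NLRP3, and Ripk3. That is a share below the background of 28.0%. The 2 called lower, beside a background of 7.77%, were Txnip, a binding partner of NLRP3, and Gsdme, another pore-forming gasdermin. Txnip was at 48.1, 43.1, 62.1 and 50.8 CPM in the lineage and 262, 201, 355 and 316 CPM in neutrophils. Gsdme was at 14.1, 7.20, 3.94 and 1.74 CPM in the lineage and 54.2, 24.3, 42.0 and 29.0 CPM in neutrophils. In samples 2 to 4 Gsdme passed the filter of 10 CPM only through neutrophils and could not have been called higher in the lineage. Against B cells, 10 of 16 were called higher in the lineage, among them Il1a, Il1b, Il18, Mefv and Ninj1, which ruptures the membrane at the end of pyroptosis, and 2 lower, Txnip and Brcc3, beside backgrounds of 16.0% and 23.9%. Against T cells 5 of 16 were called higher in the lineage, beside 13.3%, and against DCs 7 of 16 were, beside 8.57%. Between monocytes and macrophages 3 of 17 were called, all higher in monocytes, beside 2.04%: Zbp1, Gbp2 and Gbp5, the sensor of Z-form nucleic acids and the interferon-induced proteins that expose lipopolysaccharide to caspase-11. Between immature and mature neutrophils 3 of 13 were called, Il1b, Gbp2 and Gbp5, all lower in immature cells, beside 1.41%. The list was chosen with earlier results of these data known. A gene below 10 CPM in a class could not be called higher there, so these counts are a description.

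The samples themselves differed in these interferon-linked genes and in part of the 10. In neutrophils Gbp2 was at 735, 145, 156 and 72.2 CPM and Zbp1 at 136.1, 34.7, 36.8 and 26.1 CPM, with sample 1 far above the others. Sample 1 was also the highest in neutrophils for Casp1, at 54.1 CPM beside 21.8 to 24.8 CPM, and for Gsdmd, at 29.1 CPM beside 18.9 to 21.4 CPM. In the lineage it was the highest for Pycard, Casp1 and Gsdmd, at 215, 34.6 and 51.9 CPM. Casp4 in neutrophils also peaked in sample 1, at 631 CPM. Other genes did not: in neutrophils sample 1 was the lowest for Nlrp3 and Aim2, at 551 and 37.5 CPM. Pycard in neutrophils peaked in sample 4, at 53.7 CPM. How many of all genes peak in sample 1 was not computed. These values are single samples of unknown genotype and were not compared by a test.

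A class's share of a gene's UMIs depends on its cell number and the UMIs per cell as well as its level. Of all Nlrp3 UMIs in kept cells, 37.2% to 53.5% lay in the monocyte-macrophage lineage and 15.3% to 24.1% in neutrophils. For Casp4 the shares were 15.1% to 27.3% and 7.89% to 25.8%, and for Nlrp1b the lineage held 38.1% to 60.5%. Aim2 had 5.45% to 31.0% of its UMIs in B cells and 7.33% to 18.6% in T cells, while the number of B cells was 2513, 2498, 302 and 387 in samples 1 to 4. Epithelial cells, 0.325% to 0.998% of the kept cells, held 7.95% to 22.5% of the Pycard UMIs and 6.95% to 16.5% of the Nlrc4 UMIs. They were also the deepest class, at a median of 28242 to 45356 UMIs per cell, which raises their share of any gene. In samples 1 and 3 these shares rest on 48 and 33 epithelial cells. Between 12.6% and 46.8% of a gene's UMIs lay in cells with markers of several classes, which no comparison used.

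**Figure D5:**
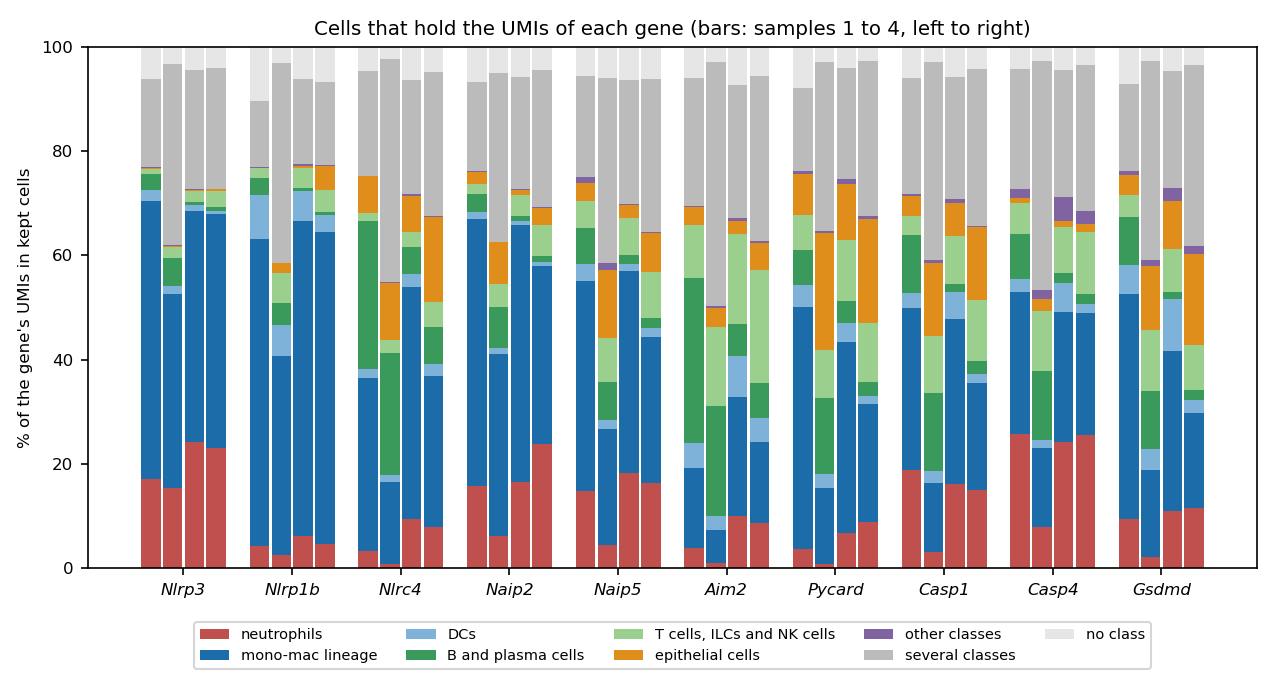
Share of each gene's UMIs in kept cells (vertical axis, %) that lay in each group of cells, with 4 bars per gene for samples 1 to 4. The lineage and neutrophils together hold most of the classed Nlrp3 and Naip2 UMIs. The lineage also holds 15.8% to 44.5% of the Nlrc4 and 14.7% to 46.4% of the Pycard UMIs. Beside it, B cells and T cells hold parts of the Aim2 UMIs, B cells and epithelial cells of Nlrc4, and T cells and epithelial cells of Pycard. Grey marks cells of several classes and of none.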

How the data were processed

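The 4 libraries were made with the 10x Genomics method. Values deposited by the authors are unnormalised UMI counts, and the matrix header gives Cell Ranger 7.0.1 as their source. The submitters' processing notes name Cell Ranger 5.0.0, STAR, Seurat and mm10. Whether intronic reads were counted is not given in the sources used here, and counting them would add reads to genes with long introns. Cells were required to have at least 200 genes and a mitochondrial share below 20%. Doublet scores came from Scrublet (scanpy 1.11.5, 30 components), and the top-scoring cells, 0.8% for each 1000 cells in a matrix, were dropped. Cells were gated as described above on log counts scaled to 10000. T-cell subsets were set by UMIs of Foxp3, Cd4, Cd8a, Cd8b1 and Trdc, and other subsets by markers at 0.5 standard deviations within the class. Counting intervals were computed in scipy 1.17.1, and the calls and gates were tested on simulated data. Of the gene identifiers, 32235 are in GENCODE M21 (GRCm38), and promoters came from RefSeq. The gene members, the list of related genes and the markers were chosen with earlier results of these data known, and the scoring rule of the gates after cells had been seen. The genes named by likeness are the 3 with the highest correlation. The alternatives were other filters, gates, scalings, depths and folds, and leaving out each sample. Precision is limited by cell number in the epithelial and subset gates. The result of 1 gene of the related list is not reported here.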

Additional observations from a re-analysis of the deposited data

How the results depend on the processing

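Of 980 ratios of a gene between classes recomputed under the alternatives, 917 stayed within the spread over samples, 62 moved by more and 1 reversed. The reversed one was Nlrp1b in epithelial cells over the monocyte-macrophage lineage, whose median log2 ratio was -2.39 at full depth and 0.84 with cells thinned to 1000 UMIs, where the epithelial cells held 0 UMIs of it and the value is the upper limit that 3 counts allow. Counts of called genes were mostly the same. Epithelial genes called higher numbered 2, but 0 with a gate of 4 markers and 0 with cells of several classes assigned to their highest score (an alternative chosen after seeing the data), as sample 1 then entered; they numbered 1 after thinning, when Pycard was left, and 4 at 1.5-fold. Epithelial genes called lower fell from 3 to 1 after thinning. Thinning left 1 gene, Nlrc4, called higher in the lineage than in neutrophils. At 1.5-fold the lineage had 8 genes called higher than in B cells, 8 than in T cells and 4 than in DCs, 1 lower than in B cells and 1 lower than in DCs (Aim2 in both), and monocytes had 1 higher than macrophages (Naip2). Aim2 was also the 1 gene called lower than in B cells when mitochondrial, ribosomal protein and immunoglobulin genes were left out of the total. Leaving out 1 sample at a time gave 2 to 3 genes higher in the lineage than in neutrophils, 5 to 6 than in B cells, 5 to 5 than in T cells, 2 to 3 than in DCs, 0 to 1 lower than in B cells (1 without sample 2, Aim2), 2 to 4 higher and 3 to 4 lower in epithelial cells (4 and 4 without sample 2), and 3 to 6 genes highest in the same class in every sample, 4 with all samples. Nlrp3 was called lower in immature than in mature neutrophils under every alternative. No paired analysis was possible because the labels give no groups of samples to pair, and the comparisons between classes were already made within each sample.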
